A study of Mus musculus with 16 samples.

Results

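The expressed Zfp zinc finger genes are 227 protein-coding mouse genes whose symbol is Zfp followed by digits. They were chosen by level, at a mean of 5 counts per 1000000 gene counts (CPM) or more over the 3 WT libraries without an age, and Zfp36 was left out. They are 227 of 364 protein-coding genes with such a symbol, and of 55754 gene identifiers in all files. The 3 members just above the level were Zfp963, Zfp976 and Zfp287, at 5.08, 5.09 and 5.10 CPM, and the 3 genes just below it were Zfp28, Zfp97 and Zfp229, at 4.89, 4.84 and 4.83 CPM. The label held: a match to the C2H2 zinc finger was found in the translated coding sequence of all members but 3 (Zfp330, Zfp703 and Zfp839).

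The cells were CD4 and CD8 double-positive (DP) thymocytes sorted from mouse thymus, the stage of T cell development before cells commit to the CD4 or CD8 lineage. The 5 groups were METTL3 KO without a stated age (3 libraries), WT without a stated age (3), young METTL3 KO (3), old WT (4) and young WT (3). METTL3 is the enzyme that methylates adenosines in messenger RNA to N6-methyladenosine. The labels give no Cre driver, deleted exon, strain, age in weeks, litter or batch, and do not say whether libraries came from separate mice, so the p-values measure the spread between these libraries.

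C2H2 zinc finger proteins bind DNA through repeats in which a pair of cysteines and a pair of histidines hold a zinc ion. Many carry an N-terminal KRAB domain that recruits KAP1 (Trim28) and, through it, the histone methyltransferase Setdb1 and HP1 proteins, and such KRAB proteins silence retroelements and protect imprints. Genes of the family arose by tandem duplication and stand in clusters of close relatives, and members without KRAB include general transcription factors and proteins that bind RNA or act on ribosomes.

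The coding sequence of a finger is shown for 4 members, because the repeat defines the family. Each stretch was read from the GENCODE M21 transcript of the gene (GRCm38), 5′ to 3′ on the coding strand, and capitals mark the codons of the 2 cysteines and 2 histidines. Codons 223 to 248 of Zfp871 (gene at chr17:32765496-32788287, minus strand) include the linker to the next finger.
Zfp871: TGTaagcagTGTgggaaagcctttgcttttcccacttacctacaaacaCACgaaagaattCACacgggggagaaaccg
Codons 124 to 144 of Zfp507 (gene at chr7:35772343-35803003, minus strand), codons 48 to 68 of Zfp579 (gene at chr7:4983483-4996158, minus strand) and codons 13 to 34 of Zfp207 (gene at chr11:80383279-80405733, plus strand) have no such linker after the match.
Zfp507: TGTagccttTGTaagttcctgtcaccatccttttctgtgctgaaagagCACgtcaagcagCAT
Zfp579: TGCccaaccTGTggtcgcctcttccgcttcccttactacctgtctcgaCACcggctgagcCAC
Zfp207: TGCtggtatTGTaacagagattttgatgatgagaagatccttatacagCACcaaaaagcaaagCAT
Members held a median of 11 finger matches (from 0 to 37), and 121 of 227 matched the KRAB A box, against 32 of 9024 other protein-coding genes of 5 CPM or more.

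The members' transcripts were of low abundance and differed in form from those of other genes. In WT cells without an age their levels ran from 5.08 to 319 CPM, with a median of 32.9 CPM, against a median of 51.2 CPM in the 9024 other protein-coding genes of that level. Their longest coding transcripts had a median length of 3380 bases, a GC content of 44.8%, a 3′ untranslated part of 1191 bases and 5 exons, against 2993 bases, 50.3%, 964 bases and 10 exons in the other genes. By CPM the highest members were Zfp207 (a spindle and kinetochore protein that binds Bub3), Zfp91 (a ubiquitin ligase of the non-canonical NF-κB pathway), Zfp740 and Zfp292, at means of 319 ± 64.0, 300.3 ± 12.2, 293 ± 18.7 and 257 ± 62.3 CPM (SD, n = 3 each), and neighbours in this order did not differ beyond their spread. Zfp740 shares 278 exonic bases with Csad on the other strand. Per kilobase of transcript the order changed: Zfp740 had 296 CPM per kb, Zfp207 204, Zfp219 63.4, Zfp330 55.3, Zfp91 54.3 and Zfp292 25.7. Counts cover the whole gene, but the length is that of 1 transcript. For Zfp207 it was 1562 bases, with a 3′ untranslated part of 16 bases. The order per kb thus depends on the transcript chosen.

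The libraries held 9781368 to 16167074 gene counts, and 50.5% to 52.2% of entries were not aligned in the set without an age, against under 1% in the others. Mettl3 itself was 33.9 ± 7.86 CPM in METTL3 KO and 47.3 ± 4.85 CPM in WT without an age, and 63.7 ± 1.32 CPM in young METTL3 KO and 63.7 ± 4.05 CPM in young WT (SD, n = 3 each). The deleted exon is not given, so counts over the whole gene do not check the KO labels. In the set without an age, the 9 DP markers summed to 8409 to 10084 CPM in METTL3 KO and 14888 to 15946 CPM in WT. There, 6 B cell markers summed to 62.6 to 86.5 CPM in METTL3 KO and 26.9 to 38.0 CPM in WT, and 6 myeloid markers to 102 to 147 and 33.5 to 56.3 CPM. Mature single-positive thymocyte markers summed to 117 to 169 CPM in METTL3 KO and 214 to 271 CPM in WT. In the same order, NK and gamma-delta T cell markers summed to 9.27 to 12.3 and 5.40 to 6.06 CPM. Thymic epithelium markers summed to 9.05 to 13.4 and 6.15 to 6.40 CPM, and erythroid markers overlapped. Mitochondrially encoded genes took 4.55% to 9.26% of gene counts in METTL3 KO and 1.59% to 2.48% in WT. Reads outside genes took 11.8% to 15.03% in METTL3 KO and 7.23% to 7.60% in WT, both without an age. In the libraries with an age they took 47.5% to 51.2%. By Xist and Y-linked genes, METTL3 KO held 2 female and 1 male library and WT held 3 male. The part of these values in the results below was not tested, except that sex was tried as a covariate. That fit cannot separate sex from genotype well. With no female WT library, its METTL3 KO estimate rests on the 1 male library, replicate 3, against WT. In bulk RNA, fewer cells of a type and less RNA per cell cannot be told apart.

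Summed, the Zfp genes took a smaller part of the gene counts in METTL3 KO without an age than in WT without an age. Together they made up 1.01%, 0.997% and 0.885% of gene counts in METTL3 KO without an age, against 1.15%, 1.13% and 1.26% in WT without an age. The groups did not overlap, and with 3 libraries each an exact permutation test cannot go below 0.10. These WT libraries also chose the members by level, so the shares are a description. Other protein-coding genes of 5 CPM or more fell too, with a median log2 fold change of -0.24, so the lower share is not read as a property of the class. The shares were 1.19%, 1.15% and 1.18% in young METTL3 KO, 1.102%, 1.18%, 1.04% and 1.27% in old WT, and 1.14%, 1.18% and 1.16% in young WT. These 3 groups overlapped, and the widest spread was in old WT.

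In METTL3 KO without an age, 97 of 227 members were lower and 23 were higher than in WT without an age, at an adjusted p under 0.05 in edgeR's quasi-likelihood test over 16432 genes. That is 42.7% and 10.1% of the members. In the same test, 24.0% of all genes were lower and 29.9% were higher, and of the 9024 other protein-coding genes of 5 CPM or more 35.9% were lower and 15.5% were higher. The members' median log2 fold change was -0.49, against -0.24 in those other protein-coding genes and 0.08 over all genes tested, and 51 of the lower members fell by 2-fold or more. Since the WT libraries of this comparison chose the members, these counts describe them and support nothing further. With the level taken instead in young WT, whose libraries lie outside the comparison, 97 were lower and 22 were higher of 223 genes tested, with a median of -0.49. With any 1 library left out, 77 of the 97 lower and 17 of the 23 higher members kept their call. An offset fitted to GC content and transcript length, which follows below, took the lower and higher counts to 66 and 35.

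**Figure D1:**
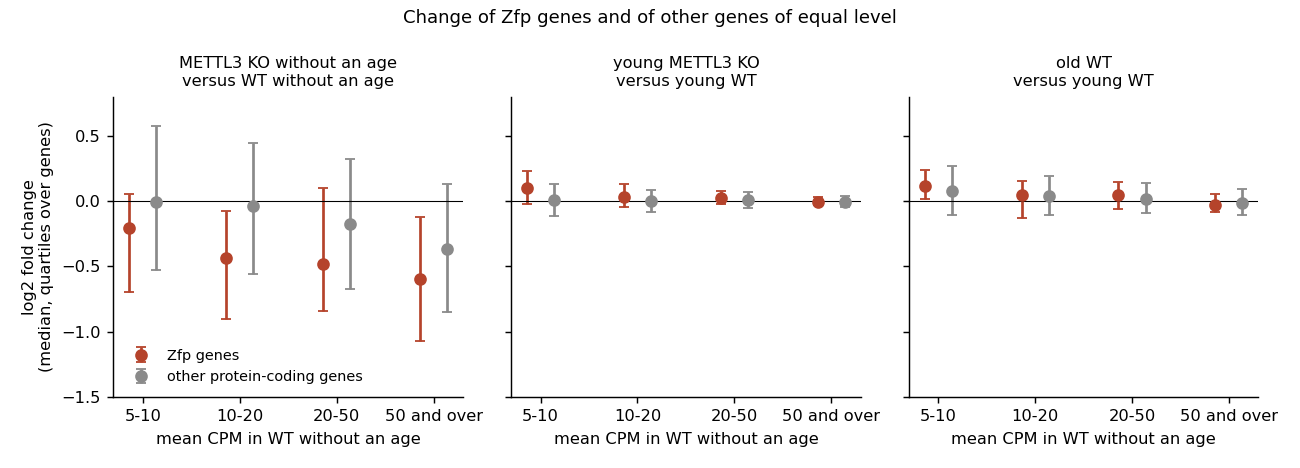
Median log2 fold change (point) and quartiles over genes (bar) of the Zfp genes and of other protein-coding genes, in 4 bins of mean CPM in WT without an age (x axis), for 3 comparisons. In METTL3 KO without an age over WT the Zfp medians run from -0.21 to -0.60 and lie below those of the other genes in every bin, and in the other 2 comparisons all medians lie between -0.03 and 0.12.

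At equal level, the members' median lay below that of other protein-coding genes in each of 4 bins. It was -0.21 for 34 members at 5 to 10 CPM, against -0.01 for 828 other genes. At 10 to 20 CPM it was -0.44 (37 members) against -0.04 (1248 genes). At 20 to 50 CPM it was -0.48 (83 members) against -0.17 (2356 genes), and at 50 CPM and over it was -0.60 (73 members) against -0.37 (4592 genes). The bins were cut on the WT libraries that also enter the fold change, so the order across bins is a description and is not read as a trend. Other zinc finger families of 5 CPM or more differed among themselves, beside the 35.9% lower and 15.5% higher of other protein-coding genes. Of 28 Zbtb genes 19 were lower and 2 were higher (median -1.05), and of 16 Zfp genes with a letter after the digits 12 were lower and 0 were higher (median -0.97). Of 9 Klf genes 4 were lower (median -0.40), of 9 Zscan genes 4 (median -0.21) and of 8 Zkscan genes 2 (median -0.41), with 0 higher in each. Of 15 Zc3h genes 4 were lower and 1 was higher (median -0.31). The shares of Zkscan and Zc3h genes that were lower, 25% and 26.7%, lay below that of other protein-coding genes.

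Members are named here in each direction by the smallest p, among called members whose groups did not overlap. The lack of overlap was thus fixed by the choice and adds nothing to their calls. Lower members come first. Zfp507 had 6.55, 8.13 and 5.46 CPM in METTL3 KO without an age, against 44.7, 45.4 and 48.3 CPM in WT without an age. It shares 1914 exonic bases with Gm26790 on the other strand, and the strand setting of the counting is not given in the sources used here, so their reads cannot be told apart. Zfp507 was 7.37-fold lower (log2 fold change -2.88 ± 0.20 SE, adjusted p = 2.83e-05), with no overlap between the groups.

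Zfp871, a KRAB-type gene, had the greatest fall of all members. It had 5.69, 13.2 and 4.15 CPM in METTL3 KO without an age, against 111, 94.9 and 133 CPM in WT without an age. Every METTL3 KO library stood far below every WT library (log2 fold change -4.004 ± 0.34 SE, adjusted p = 4.73e-05). In the libraries with an age it was high throughout, at 276, 256 and 296 CPM in young METTL3 KO, 220.0, 322, 208 and 357 CPM in old WT, and 269, 286 and 276 CPM in young WT. None of those groups stood apart from another.

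Zfp526 had 4.57, 6.62 and 8.73 CPM in METTL3 KO without an age, against 36.5, 34.9 and 38.5 CPM in WT without an age (log2 fold change -2.53 ± 0.26 SE, adjusted p = 7.24e-05). The groups did not overlap. The other lower members named by the smallest p were Zfp687, Zfp319, Zfp106, Zfp110 (a neurotrophin receptor-interacting factor) and Zfp46. They fell by 1.20 to 1.71 on the log2 scale. Zfp687 and Zfp319 share 254 and 481 exonic bases with Pi4kb and Tepp on the other strand.

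Of the members that rose, Zfp579 rose most. It had 258, 190.2 and 269 CPM in METTL3 KO without an age, against 61.8, 71.6 and 49.6 CPM in WT without an age. It was 3.71-fold higher, and no library of a group reached the other (log2 fold change 1.89 ± 0.20 SE, adjusted p = 8.43e-05). Zfp692, also known as AREBP, had 146, 112 and 122 CPM in METTL3 KO, against 52.0, 50.5 and 37.5 CPM in WT (1.36 ± 0.18 SE, adjusted p = 0.000196). Zfp341, whose human counterpart activates STAT3 transcription, had 26.4, 28.5 and 27.9 CPM in METTL3 KO, against 9.54, 11.4 and 6.99 CPM in WT (1.48 ± 0.22 SE, adjusted p = 0.000363). Neither gene overlapped between the groups, and Zfp341 shares 282 exonic bases with Gm14198 on the other strand. The others were Zfp707, Zfp956, Zfp1, Zfp653 and Zfp932, which rose by 1.08 to 1.34 on the log2 scale; Zfp653, a repressor of the nuclear receptor SF-1, shares 116 exonic bases with Gm16845 on the other strand.

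**Figure D2:**
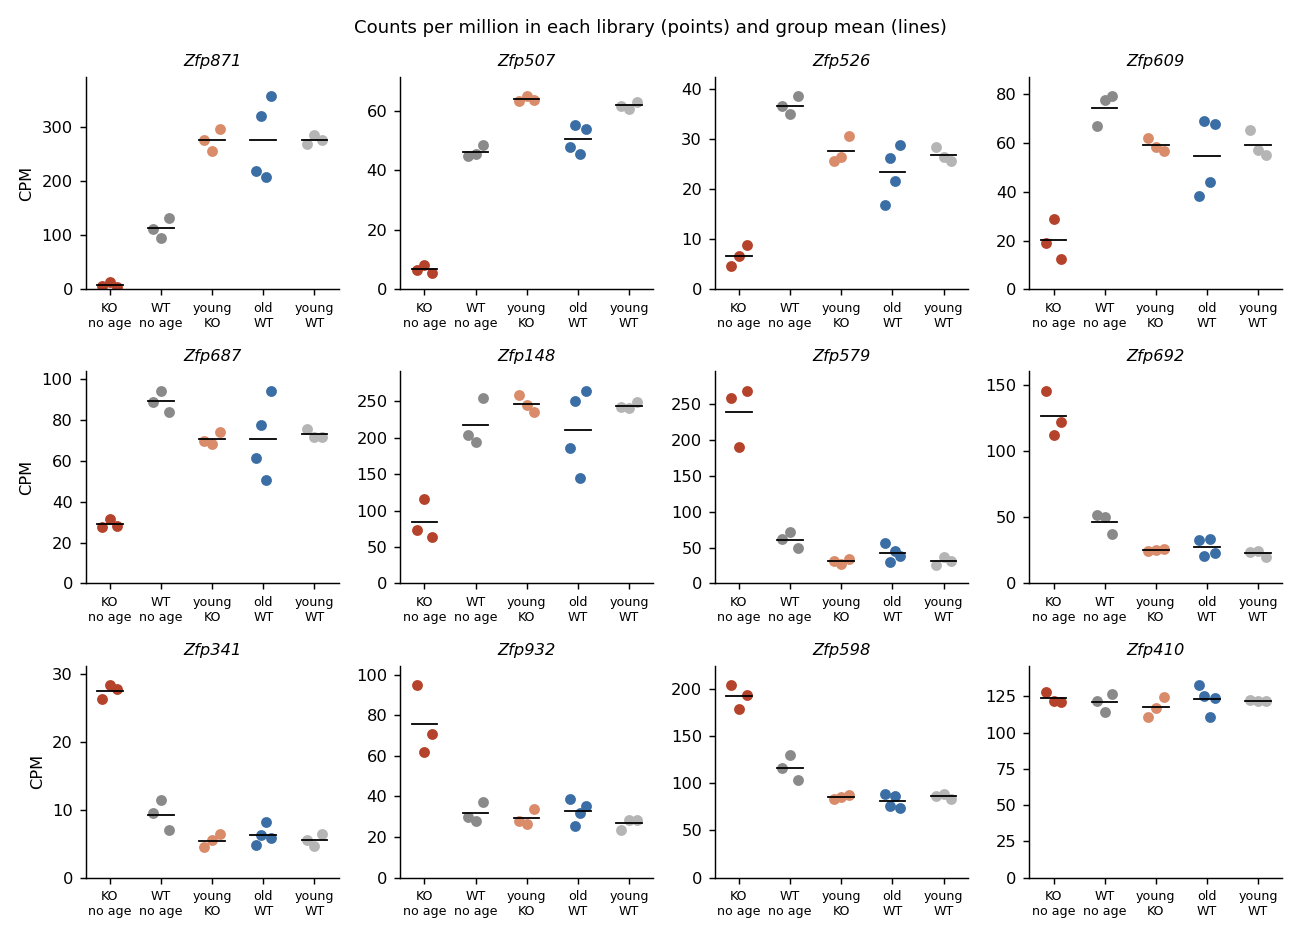
CPM of 12 Zfp genes in each of the 16 libraries (points) with the group mean (line), with an own axis from 0 for each gene. In the set without an age, METTL3 KO lies below WT for Zfp871, Zfp507, Zfp526, Zfp609, Zfp687 and Zfp148 and above it for Zfp579, Zfp692, Zfp341, Zfp932 and Zfp598. Young METTL3 KO and young WT lie side by side, and Zfp410 is level in all groups.

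Of 32 zinc finger genes listed by role, 27 were members, and Zfp608, Zfp593, Zfp462, Zfp57 and Zfp708 lay below the level. Beside the counts by role stand the 35.9% lower and 15.5% higher of other protein-coding genes of 5 CPM or more. With 4 to 10 genes in a role, these counts do not set a role apart from that background. Among 5 genes listed under lymphocyte roles, 3 were lower and 0 were higher in METTL3 KO without an age (median -0.56). For Zfp609, which is in that list, the role given here is in the neural lineage. Zfp609, a partner of Integrator in the neural lineage, had 18.8, 29.0 and 12.4 CPM in METTL3 KO, against 67.0, 77.6 and 79.2 CPM in WT (log2 fold change -2.01 ± 0.24 SE, adjusted p = 0.000142). Zfp335, which late thymocyte maturation needs in mice, had 43.8, 70.3 and 80.4 CPM in METTL3 KO, against 105, 104 and 96.1 CPM in WT (-0.73 ± 0.22 SE, adjusted p = 0.0153). Neither overlapped between the groups. With sex as a covariate, which leaves 1 METTL3 KO library against WT, Zfp335 gave -0.33. It shares 1107 exonic bases with Pcif1 on the other strand. Zfp91 also fell (-0.56 ± 0.14 SE, adjusted p = 0.00598), but not past the test under the GC and length offset (-0.14). Zfp318, which sets IgD splicing in B cells, and the BTB-domain factor Zfp131 gave -0.37 and -0.29 and did not pass the test.

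Among 8 genes that act on RNA, ribosomes or the spindle, 4 were lower and 1 was higher (median -0.44). Zfp106, an RNA-binding protein, had 95.4, 100.04 and 81.7 CPM in METTL3 KO, against 200.2, 189 and 208 CPM in WT (log2 fold change -1.20 ± 0.14 SE, adjusted p = 0.000126), and shares 2719 exonic bases with Gm26899 on the other strand. Zfp598, the ubiquitin ligase that marks collided ribosomes, had 204, 178 and 193 CPM in METTL3 KO, against 116, 130.1 and 103 CPM in WT (0.63 ± 0.15 SE, adjusted p = 0.00455). The libraries of the groups did not overlap for either gene. Under the GC and length offset Zfp598 gave 0.26 and did not pass the test. Zfp830, Zfp638 and Zfp207 fell by 0.72, 0.66 and 0.55 on the log2 scale. The groups overlapped for Zfp207. Its call was lost without METTL3 KO replicate 2 and without WT replicates 1 and 3, where the adjusted p in edgeR's test reached 0.0989. It was also lost with library size alone (adjusted p = 0.0595 in edgeR's test). With sex as a covariate, which leaves 1 METTL3 KO library against WT, Zfp207 gave -0.47. Zfp638, which silences unintegrated retroviral DNA, changed sign under the GC and length offset (0.13). Zfp830 gave -0.55 with sex as a covariate, again from 1 METTL3 KO library. Zfp622, a factor of large ribosomal subunit assembly, gave 0.05 and did not pass the test, nor did Zfp326 and Zfp346.

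Among 10 regulators of chromatin or of defined target genes, 5 were lower and 1 was higher (median -0.54). Zfp687, found with Zfp592 in a chromatin complex, had 27.4, 31.7 and 27.9 CPM in METTL3 KO, against 88.6, 94.1 and 83.9 CPM in WT (log2 fold change -1.71 ± 0.15 SE, adjusted p = 5.26e-05). Zfp148, which binds GC-rich promoters, had 73.5, 116 and 63.8 CPM in METTL3 KO, against 204, 194 and 255 CPM in WT (-1.47 ± 0.21 SE, adjusted p = 0.000261). Neither overlapped between groups, whereas Zfp592, the partner of Zfp687, gave -0.12 and did not pass the test. Zfp644, a partner of the G9a histone methyltransferase, and Zfp217, a part of CoREST complexes, fell by 1.27 and 0.95 on the log2 scale. Zfp281, a factor of pluripotent cells, fell by 0.62 and changed sign under the GC and length offset (0.05). Zfp827, which brings NuRD to telomeres, had 26.4, 21.3 and 22.9 CPM in METTL3 KO, against 9.86, 9.23 and 13.5 CPM in WT (1.02 ± 0.23 SE, adjusted p = 0.00311). Zfp410, an activator of Chd4, had 128, 122 and 121 CPM in METTL3 KO, against 122, 114 and 126 CPM in WT. It shares 225 exonic bases with Gm47484 on the other strand. These values overlapped and gave -0.05 ± 0.14 SE, which did not pass the test, nor did Zfp143 and Zfp451.

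Of the 4 KRAB proteins known to silence retroelements or guard imprints, 3 were lower and 1 was higher (median -0.64). Zfp568, which represses a placental Igf2 promoter, had 11.4, 17.5 and 10.6 CPM in METTL3 KO, against 22.2, 22.5 and 21.2 CPM in WT (log2 fold change -0.84 ± 0.22 SE, adjusted p = 0.00732). Zfp932, a repressor of endogenous retroviruses, had 94.9, 61.8 and 70.5 CPM in METTL3 KO, against 29.9, 27.8 and 37.4 CPM in WT (1.17 ± 0.21 SE, adjusted p = 0.000871). The groups did not overlap for either gene, and their directions were opposite. Zfp445, a guard of imprints, fell by 0.65 on the log2 scale. It changed sign under the GC and length offset (0.05), and its call was lost with library size alone (-0.53, adjusted p = 0.0549). Zfp809, which silences retroviruses by their tRNA primer site, fell by 0.64. Its call was lost under that offset (adjusted p = 0.0543 in edgeR's test). It was also lost without METTL3 KO replicate 1, WT replicate 1 or WT replicate 3 (adjusted p of 0.0505 to 0.0938 in edgeR's test). With sex as a covariate, which leaves 1 METTL3 KO library against WT, Zfp809 gave -0.45. Of 18 partners of the KAP1 corepressor, 7 were lower and 0 were higher. The share lower, 38.9%, is near the 35.9% of other protein-coding genes. The HP1 genes Cbx3, Cbx5 and Cbx1 fell by 1.505, 1.22 and 0.48 on the log2 scale, and Trim28 itself gave 0.12 and Setdb1 -0.06, neither past the test.

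**Figure D3:**
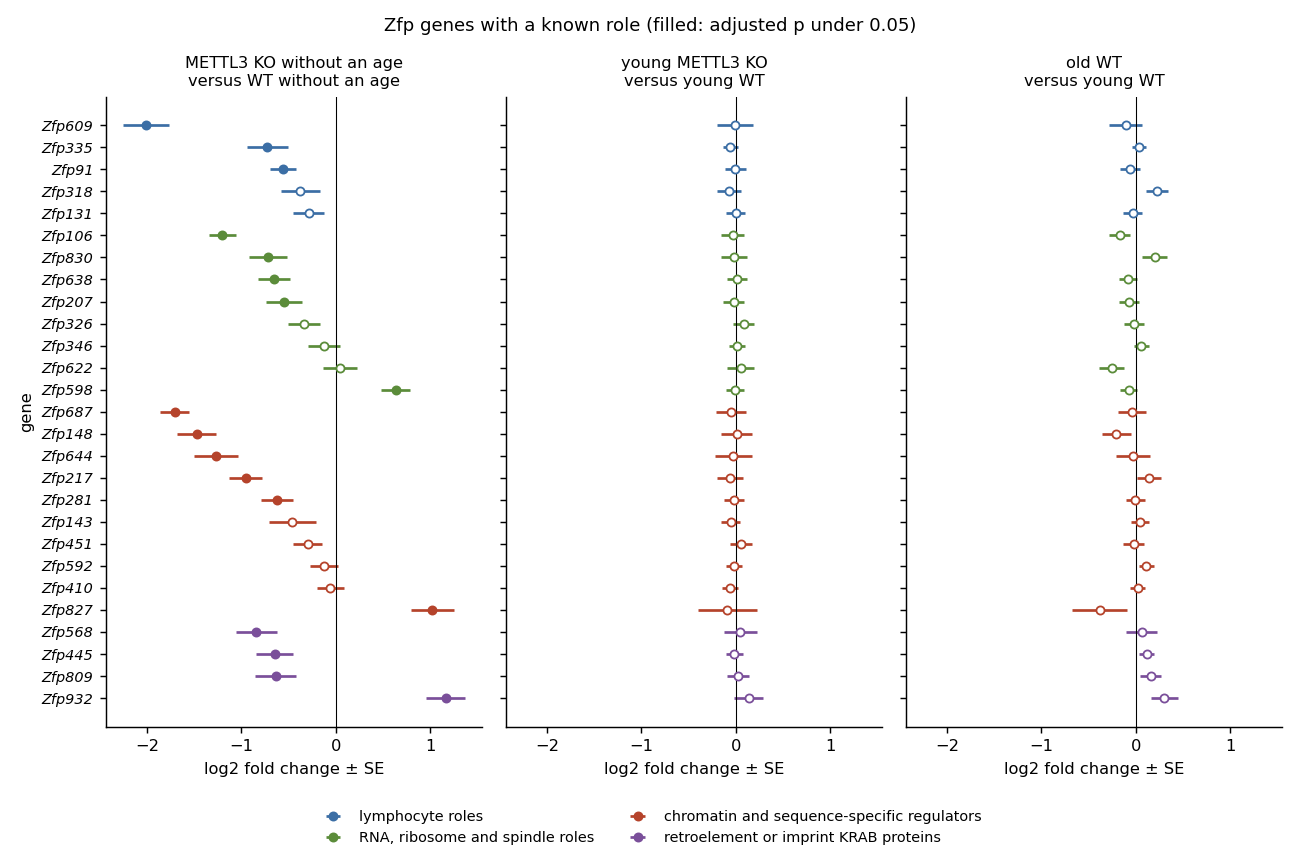
Log2 fold change ± SE (x axis) of the 27 Zfp genes listed by role (rows, coloured by role), for METTL3 KO over WT without an age, young METTL3 KO over young WT, and old WT over young WT. Filled points passed an adjusted p of 0.05, which 15 genes did downward and 3 upward in the first comparison and 0 did in the others.

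Transcript length and GC content moved with the change, in members and in other genes. The 97 lower members had a median transcript length of 4113 bases and a GC content of 43.1%, the 23 higher ones 2489 bases and 57.1%, and the 107 not called 3072 bases and 45.5%. Across the 227 members, Spearman's rho with the log2 fold change was -0.39 for length and 0.27 for GC content, and across 9019 other genes it was -0.40 and 0.49. Genes are not independent replicates, and these values share the same 6 libraries, so they are a description. Matches to DRACH, the consensus at which METTL3 methylates (D any base but C, R a purine, H any base but G), were counted per kb. Their medians were 21.0 in the lower members, 18.1 in the higher ones, 20.8 in those not called and 20.03 in other genes. Spearman's rho of DRACH matches per kb with the log2 fold change was -0.15 in members and -0.07 in other genes. The lower members had a median 3′ untranslated part of 1748 bases, the higher ones of 469 bases and those not called of 994 bases.

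**Figure D4:**
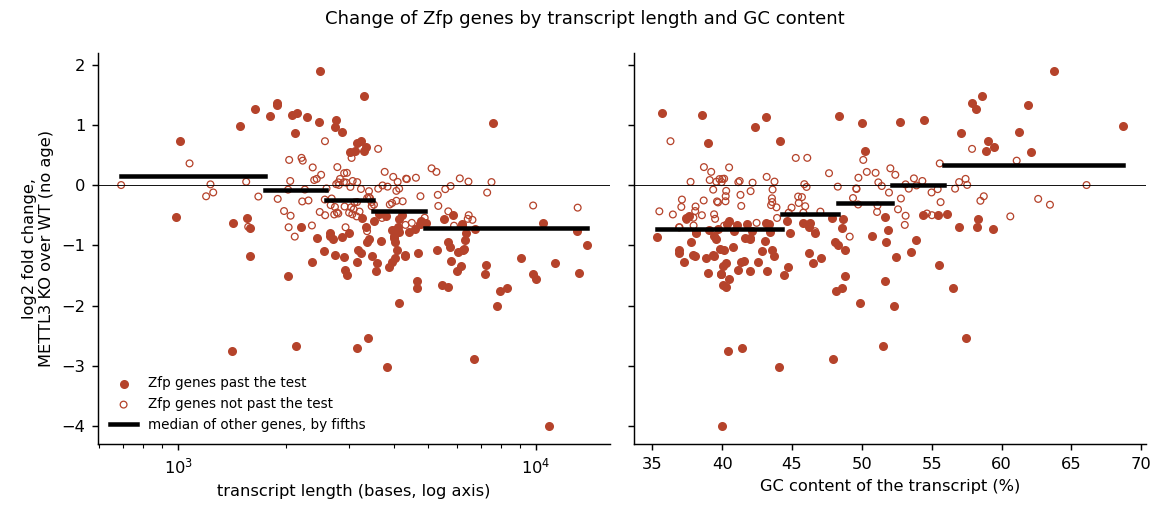
Log2 fold change of each of the 227 Zfp genes, METTL3 KO over WT without an age, against transcript length (left, log axis) and GC content (right). Black bars are medians of other protein-coding genes of 5 CPM or more in 5 equal bins of each feature, and they run from 0.16 to -0.72 with length and from -0.72 to 0.33 with GC content.

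Compared with genes of like length and GC content, the members were not uniformly lower. When members and other genes were split into 3 bins of GC content and 3 of length, the members' median lay below that of the others in 4 of 9 cells. In the cell of low GC content and long transcripts, which held 55 members, their median was -0.75, against -0.86 for 1355 other genes. In the cell of low GC content and middle length, with 62 members, it was -0.49, against -0.57 for 958 others. In the cell of middle GC content and long transcripts, with 21 members, it was -0.84, against -0.56. A total of 48.5% of the members lay in the lowest of 5 bins of GC content, where 55 of 110 were lower and 61.0% of other genes were lower. The GC and length offset was fitted to each library's own deviations from the mean of these same libraries. It thus takes out any part of the change that follows GC content or length, whether technical or not. With the GC and length offset in the fit, the members' median was -0.11, against -0.15 for other protein-coding genes. Under that fit 66 members (29.1%) were lower and 35 (15.4%) were higher, close to the 30.1% lower and 15.6% higher of other protein-coding genes of 5 CPM or more. Of all genes, 20.4% were lower and 29.8% were higher. By gene, 57 of the 97 lower members and 17 of the 23 higher ones kept their call.

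By protein type, 50 of 121 KRAB-type members were lower and 9 were higher (median -0.54), and 47 of 106 members without a KRAB match were lower and 14 were higher (median -0.45). The shares lower were 41.3% and 44.3%, beside 35.9% of other protein-coding genes. With the GC and length offset these types parted: the median was 0.04 in KRAB-type members (24 lower, 23 higher) and -0.29 in the others (42 lower, 12 higher). As shares, 19.8% of KRAB-type members were lower and 19.01% were higher, and 39.6% and 11.3% of the others, beside 30.1% and 15.6% of other protein-coding genes. The difference between the types was not tested. By finger number the median was -0.37 with 0 to 3 fingers, -0.27 with 4 to 9, -0.64 with 10 to 14 and -0.50 with 15 or more.

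The members stood on 20 chromosomes, 57 of them on chromosome 7, 30 on chromosome 17 and 19 on chromosome 13. Chained over gaps of up to 300 kb, 15 clusters held at least 4 members each, 98 in all. Reads that align to several places are counted apart in these files, at 1.92% to 3.50% of entries in the set without an age. That share covers the whole genome, and reads of close relatives may be among them, so levels within clusters are uncertain. The share to read cluster counts against is the 35.9% lower of other protein-coding genes of 5 CPM or more. In the cluster at chr13:67038596-67827002 (GRCm38), whose 11 members were all KRAB-type, 8 were lower and 0 were higher, with a median log2 fold change of -0.95. In the cluster at chr17:21383748-22456689, with 14 KRAB-type members, 3 were lower and 0 were higher (median -0.42), a share lower no larger than that of other genes. In the cluster at chr8:71882019-71993792, all 4 members (Zfp709, Zfp882, Zfp617 and Zfp961, named after their values were seen) were lower, by 0.90 to 2.70. The bodies of Zfp882 and Zfp617 overlap there. Clusters were not of 1 direction throughout: the one at chr9:22055411-22307648 held 2 lower and 2 higher members, with Zfp653 at 1.34 and Zfp809 at -0.64.

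**Figure D5:**
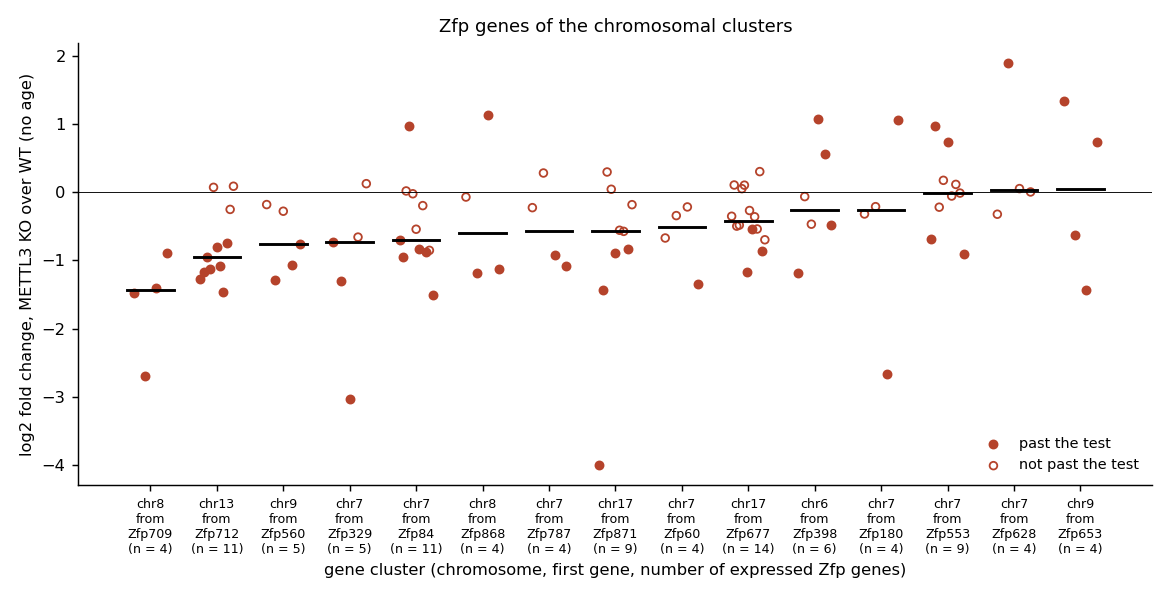
Log2 fold change, METTL3 KO over WT without an age, of each Zfp gene (point; filled if past the test) in the 15 chromosomal clusters with 4 or more members, ordered by their median (bar). Medians run from -1.44 in the chromosome 8 cluster that starts at Zfp709 to 0.05 in the chromosome 9 cluster that starts at Zfp653.

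Promoters are shown for the members with the greatest fall, the smallest p and the greatest rise. They are from RefSeq (GRCm38.p6), from 250 bases before to 50 bases after the start, on the gene's strand. Capitals mark motifs searched on both strands. The letters GGGCGG were taken as a GC box, and those of a CCAAT box are its name. An ETS core was read as the letters CCGGAA. A search for the TATA box used the letters TATAAA and found none in these promoters.
Zfp871, chr17:32788238-32788537, minus strand: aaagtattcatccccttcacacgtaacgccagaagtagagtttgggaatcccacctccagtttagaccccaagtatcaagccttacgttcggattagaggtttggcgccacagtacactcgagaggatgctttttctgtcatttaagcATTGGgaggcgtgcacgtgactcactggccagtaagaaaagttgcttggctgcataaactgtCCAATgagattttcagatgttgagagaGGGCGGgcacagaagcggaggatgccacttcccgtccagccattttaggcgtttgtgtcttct
Zfp507, chr7:35802940-35803239, minus strand: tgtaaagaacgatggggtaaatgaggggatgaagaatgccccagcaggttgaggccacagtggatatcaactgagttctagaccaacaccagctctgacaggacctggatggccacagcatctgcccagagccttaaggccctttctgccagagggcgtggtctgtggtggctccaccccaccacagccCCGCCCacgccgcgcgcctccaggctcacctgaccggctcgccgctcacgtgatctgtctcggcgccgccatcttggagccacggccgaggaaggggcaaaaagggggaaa
Zfp579, chr7:4996052-4996351, minus strand: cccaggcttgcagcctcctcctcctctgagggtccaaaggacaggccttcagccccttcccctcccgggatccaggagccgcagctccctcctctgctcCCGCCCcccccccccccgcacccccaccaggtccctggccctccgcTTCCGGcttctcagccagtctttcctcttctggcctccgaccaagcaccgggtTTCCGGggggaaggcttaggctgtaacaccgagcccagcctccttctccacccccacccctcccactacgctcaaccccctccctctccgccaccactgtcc
A promoter matched by symbol for 192 members. A GC box stood in 46.4% of them, against 68.6% of 7267 promoters of other protein-coding genes of 5 CPM or more and 35.7% of all 32851 promoters in the table. A CCAAT box stood in 51.0%, against 39.9% and 37.4%, and an ETS core in 37.5%, against 33.5% and 14.9%. Among members, a GC box stood in 46.2% of lower, 50% of higher and 45.7% of not called members, and a CCAAT box in 50%, 50% and 52.2%. An ETS core stood in 32.5% of lower, 30% of higher and 43.5% of not called members, the groups holding 80, 20 and 92 promoters. A match is a description of letters and not a site.

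In young METTL3 KO, no member differed from young WT past the test (0 of 227), and 0% of the 14228 genes tested did. At an unadjusted p under 0.05 there were 0 members and 88 genes, and DESeq2 called 0 members. The members' median log2 fold change was 0.02, against -0.00 over all genes tested, and 133 of 227 lay above 0. For 175 members the 95% interval of the difference lay inside -0.5 to 0.5, and for 224 inside -1 to 1. The smallest p was that of Zfp287, with 7.26, 5.01 and 6.51 CPM in young METTL3 KO, against 4.85, 4.75 and 4.498 CPM in young WT (0.41 ± 0.20 SE, adjusted p = 1 in edgeR's test). Its groups did not overlap but were close. Zfp938, Zfp52 and Zfp273 followed, at 0.37, 0.30 and 0.30, with the same adjusted p. The members that moved most in the set without an age were level here: Zfp507 had 63.3, 64.8 and 63.7 CPM in young METTL3 KO, against 61.6, 60.7 and 63.0 CPM in young WT, and Zfp579 had 31.7, 27.4 and 34.6 CPM against 25.1, 36.3 and 31.5 CPM.

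The change with the KO label differed between the sets. In an interaction test over 12 libraries, 74 members were lower and 27 were higher in the set without an age relative to the young set, where 17.7% and 19.2% of 16557 genes were. As shares these are 32.6% and 11.9% of members, against 25.3% and 18.4% of other protein-coding genes of 5 CPM or more. The members' median interaction was -0.35 on the log2 scale, against -0.08 in those other genes and 0.14 over all genes, and -0.04 with the GC and length offset, against -0.03 in the other genes. The members' median moved with the libraries used, and so did the medians of the other genes. Without METTL3 KO replicate 1 or 2, or without any 1 young library, the members' median was -0.61 to -0.56. There it was -0.32 to -0.26 in the other protein-coding genes and -0.08 to -0.03 over all genes. Without METTL3 KO replicate 3 it was -0.48 in members, -0.29 in the other protein-coding genes and -0.05 over all genes. Of the 97 members lower in METTL3 KO without an age, 74 also had a lower interaction, and of the 23 higher 22 had a higher one. Zfp39 and Zfp61, named by this test, were -1.36 and 1.05 in METTL3 KO over WT without an age (adjusted p = 0.000195 and 0.0011 in edgeR's test). The sets also differ in the shares of entries not aligned and outside genes, and the labels do not say how else. Genotype and handling therefore cannot be told apart here.

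In old WT, no member passed the test against young WT (0 of 227), where 0.253% of 14228 genes did. At an unadjusted p under 0.05 there were 10 members and 1716 genes. The members' median log2 fold change was 0.03, against 0.01 over all genes, and for 163 members the 95% interval lay inside -0.5 to 0.5. Zfp773 had the smallest p. It had 16.3, 13.6, 19.5 and 17.8 CPM in old WT, against 8.93, 10.6 and 9.50 CPM in young WT, and the groups did not overlap (0.80 ± 0.15 SE, adjusted p = 0.058). DESeq2 called it as the only member (adjusted p = 0.00276), where that test called 1.08% of genes. Zfp507 had 47.9, 55.1, 45.4 and 53.8 CPM in old WT, against 61.6, 60.7 and 63.0 CPM in young WT. All old libraries lay below all young ones, by 0.28 ± 0.08 SE on the log2 scale (adjusted p = 0.251). Zfp637 and Zfp52 gave 0.35 and 0.42, with adjusted p of 0.316 and 0.344. Old WT replicate 3 stood apart, with 9.59% mitochondrially encoded counts against 1.98% to 2.29% in the other old libraries, and 504 CPM of B cell markers against 38.3 to 141 CPM. Without it the count of members called stayed at 0.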

How the data were processed

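Bulk RNA of sorted mouse DP thymocytes was sequenced in 16 libraries of 5 groups. Per the labels' protocols, total RNA was extracted with Trizol and libraries followed BGI's protocol. The submitters' processing notes name HISAT2 2.0.5 and the mm10 build. The deposited files hold raw read counts per gene and library, with 5 summary lines that were left out of library sizes. Neither the counting program nor its annotation or use of strand is stated there.

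CPM are counts per 1000000 gene counts of a library, without further scaling. Counts were tested with edgeR 4.0.16 (limma 3.58.1, R 4.3.3): genes kept by filterByExpr, TMM scaling, robust quasi-likelihood fit, Benjamini-Hochberg adjustment over all genes, two-sided, threshold 0.05. METTL3 KO and WT without an age were fitted on their 6 libraries, the young and old comparisons on 10, and the interaction of genotype and set on 12. Fold changes follow TMM scaling and so differ from ratios of CPM. SE and intervals cover the spread between all libraries of a fit, also those outside the 2 groups compared. The young METTL3 KO and old WT comparisons share the young WT libraries. Scripts were tested on simulated data.

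Gene names, coordinates, transcripts and their translations are from GENCODE M21 (GRCm38), with the longest coding transcript of a gene. Fingers and the KRAB A box were found by pattern in those translations. Of the identifiers, 55154 of 55335 and 54495 of 54532 matched. A gene was named if it stood in a role list, was among the 8 called members of smallest p in a direction with groups that do not overlap (or, with under 4 calls, the 4 of smallest p), or was among the 4 highest or the 3 nearest the level on either side. Members and lists were chosen with earlier results of these data known. Alternatives were RLE size factors, library size alone, DESeq2 1.42.0, no filter, the replicate number as a block, sex, a GC and length offset (mgcv 1.9.3), fits of 2 groups alone, each library left out, and other levels or symbols for members. Members of 5 CPM in both WT sets and members with no exonic overlap on the other strand were added after seeing the data.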

Additional observations from a re-analysis of the deposited data

Results flagged for a closer look

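For 30 of the genes named, the change with the KO label differed between the set without an age and the young set, by edgeR's interaction test (log2 scale, adjusted p from 1.28e-06 for Zfp507 to 0.0476 for Zfp281). The test cannot tell genotype from other differences between the sets. The interaction was lower for Zfp871 (-3.83), Zfp507 (-2.76), Zfp526 (-2.41), Zfp609 (-1.83), Zfp687 (-1.49), Zfp46 (-1.42), Zfp292 (-1.39), Zfp148 (-1.31), Zfp39 (-1.21), Zfp110 (-1.15), Zfp319 (-1.14) and Zfp644 (-1.06). It was also lower, by less, for Zfp106 (-0.9997), Zfp217 (-0.72), Zfp568 (-0.72), Zfp638 (-0.50), Zfp281 (-0.43) and Zfp91 (-0.38). It was higher for Zfp579 (2.04), Zfp341 (1.68), Zfp653 (1.53), Zfp1 (1.44), Zfp692 (1.35), Zfp827 (1.29), Zfp707 (1.25), Zfp932 (1.20), Zfp956 (1.19), Zfp963 (1.14), Zfp61 (1.14) and Zfp598 (0.81).

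In old WT, 1 library stood away from the other 3 for 3 named genes, by the gap to its neighbour over the range of the group: 0.869 for the highest library of Zfp445, 0.840 for the highest of Zfp318 and 0.837 for the lowest of Zfp39. Such a gap arises by chance in about 1 in 20 groups, and 52 named genes were looked at.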

How the results depend on the processing

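In METTL3 KO against WT without an age, 120 of 227 members were called, and 101 to 141 under the alternatives that kept these members. Other choices of members gave 88 to 132, with 88 of 172 for members with no exonic overlap on the other strand. These counts sum both directions. With the GC and length offset 66 were lower and 35 were higher, against 97 and 23 in the main fit. The median of -0.49 moved to -0.11 with the GC and length offset, -0.38 with library size alone and -0.67 with no filter. The median of other protein-coding genes moved to -0.15, -0.15 and -0.43 in the same order. With sex as a covariate, which leaves 1 METTL3 KO library against WT, the members' median was -0.58 and that of the other genes -0.24. Without a filter the median of all genes was -0.10, against 0.08 with it. With a library left out the members' median ran from -0.56 to -0.43. The interaction median of -0.35 became -0.036 with the offset and -0.62 with no filter, and ran from -0.61 to -0.27 with a library left out; that of all genes was -0.09 with no filter, against 0.14 with it. For age, 1 member (Zfp773) was called by DESeq2, with the offset and with no filter, and 0 to 1 with a library left out (1 without old WT replicate 2), where the median ran from -0.020 to 0.048. Zfp281 (0.050), Zfp445 (0.047) and Zfp638 (0.13) changed sign with the offset. The cause was not tested.

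The replicate numbers did not pair libraries (correlation of same-numbered deviations -0.27 to -0.06 in the set without an age, -0.33 to 0.14 for young METTL3 KO, -0.26 to 0.08 for age). With the replicate block 112 members were called in METTL3 KO without an age, 0 in young METTL3 KO and in age, and 87 by interaction, and the age median was -0.00941.

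Of the alternatives for single genes, 996 of 1033 kept direction and call. Groups of 3 limit what can be called, sex and genotype are entangled in the set without an age, and levels of close relatives depend on how reads were assigned.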

Other observations

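Of 137 protein-coding Zfp genes below the level of 5 CPM, 81 were tested in METTL3 KO against WT without an age. Of these, 6 (7.41%) were lower and 22 (27.2%) were higher, where 24.0% and 29.9% of all genes were. The share higher was thus near that of all genes, and the median log2 fold change was 0.27. These genes were chosen by a low level in the same WT libraries. The count filter also keeps a gene that is low in WT if METTL3 KO carries it. The counts are therefore a description and not a trait of these genes.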
